A study of Homo sapiens with 24 samples.

Results

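Experiment 3 is the set of 4 Illumina bead arrays whose titles carry that experiment number, 1 array for each of 4 siRNAs, out of 24 arrays in the series. It was set against the 20 arrays of experiments 1, 5, 7, 9 and 11, which hold the same 4 siRNAs once each. The cells were HB2, an immortalized human mammary epithelial line. Cells received, with the reagent DharmaFECT 3, 50 nM of 1 of 4 siRNAs: exon 1 siRNA, exon 7 siRNA or exon 9 siRNA, each named for the part of the long noncoding RNA gene GNG12-AS1 it is directed at, or control siRNA. Total RNA was taken after 48 h. Every array of either set therefore comes from transfected cells, and no untransfected cells were analysed here. Each exon was targeted by 1 siRNA. The labels call the arrays of a siRNA biological replicates, and by the titles each replicate number is 1 experiment. No tested gene carried the name GNG12-AS1, so the knockdown itself was not analysed here.

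Experiment 3 was selected on the measured values of interferon-stimulated genes, which were high on its arrays, with IFIT2, IFIT3, IFI44 and ISG20 named as its markers. Its difference from the other experiments is therefore given as a description with no test, since it is also 1 experiment, whose 4 arrays are not independent of each other. A gene was called higher or lower when the mean of the 4 experiment 3 arrays lay at least 1.5-fold from the mean of the others, with the same sign under each siRNA. By this rule 180 of 11029 tested genes were higher (1.63%) and 67 were lower (0.607%). Without background correction, and also with the authors' normalized values, 63 were higher and 11 lower. Values are log2 intensities after background correction and quantile normalization, and differences are on the same log2 scale. Arrays of experiment 3 lay inside the range of the others in their technical measures. Before normalization their medians were 7.48 to 7.59 against 7.41 to 7.74, and 34.8% to 37.9% of probes lay above background against 34.2% to 39.5%. The number of arrays limits the precision of all values.

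Interferons are secreted proteins that cells make when sensors detect foreign nucleic acid. They bind receptors whose kinases activate a transcription factor complex containing IRF9, and this complex binds the interferon-stimulated response element in the promoters of a large set of antiviral genes. Double-stranded RNA, including some siRNAs, is a known trigger of the pathway, and epithelial cells both make interferons and respond to them.

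Of the markers, IFIT3, IFI44 and ISG20 were higher in experiment 3 under all 4 siRNAs, while IFIT2 was higher by less than the 1.5-fold threshold. IFIT3, which works with IFIT1 and IFIT2 in binding viral RNA, had 10.49, 10.37, 10.15 and 11.23 in experiment 3 under the exon 1, exon 7, exon 9 and control siRNAs. In the other experiments it ran from 8.51 through a median of 9.24 to 9.94. Each experiment 3 array thus stood above all arrays of the others, and its mean was 10.56, against 9.18 ± 0.20 (SD over 5 experiments). The difference was 1.38, or 2.61-fold, and 2 further probes gave 1.13 and 1.29.

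IFI44, an interferon-induced protein, had 9.53, 9.93, 9.38 and 9.99 in experiment 3 in the same siRNA order, and 8.10, 8.73 and 9.41 as lowest, median and highest of the others. Within each siRNA the experiment 3 array was the highest, by a mean of 0.96 (1.95-fold). ISG20, an exonuclease that degrades RNA, had 9.52, 9.36, 8.96 and 9.94 in experiment 3, against 8.02, 8.84 and 9.19 in the others. It was likewise highest within each siRNA, with a difference of 0.68 (1.60-fold). IFIT2 had 10.82, 11.46, 10.88 and 12.13 in experiment 3, against 9.95, 10.84 and 11.27. Under exon 1 its experiment 3 array overlapped the others, and its differences ran from 0.21 under exon 1 to 0.95 under the control siRNA, with a mean of 0.53 (1.45-fold).

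**Figure D1:**
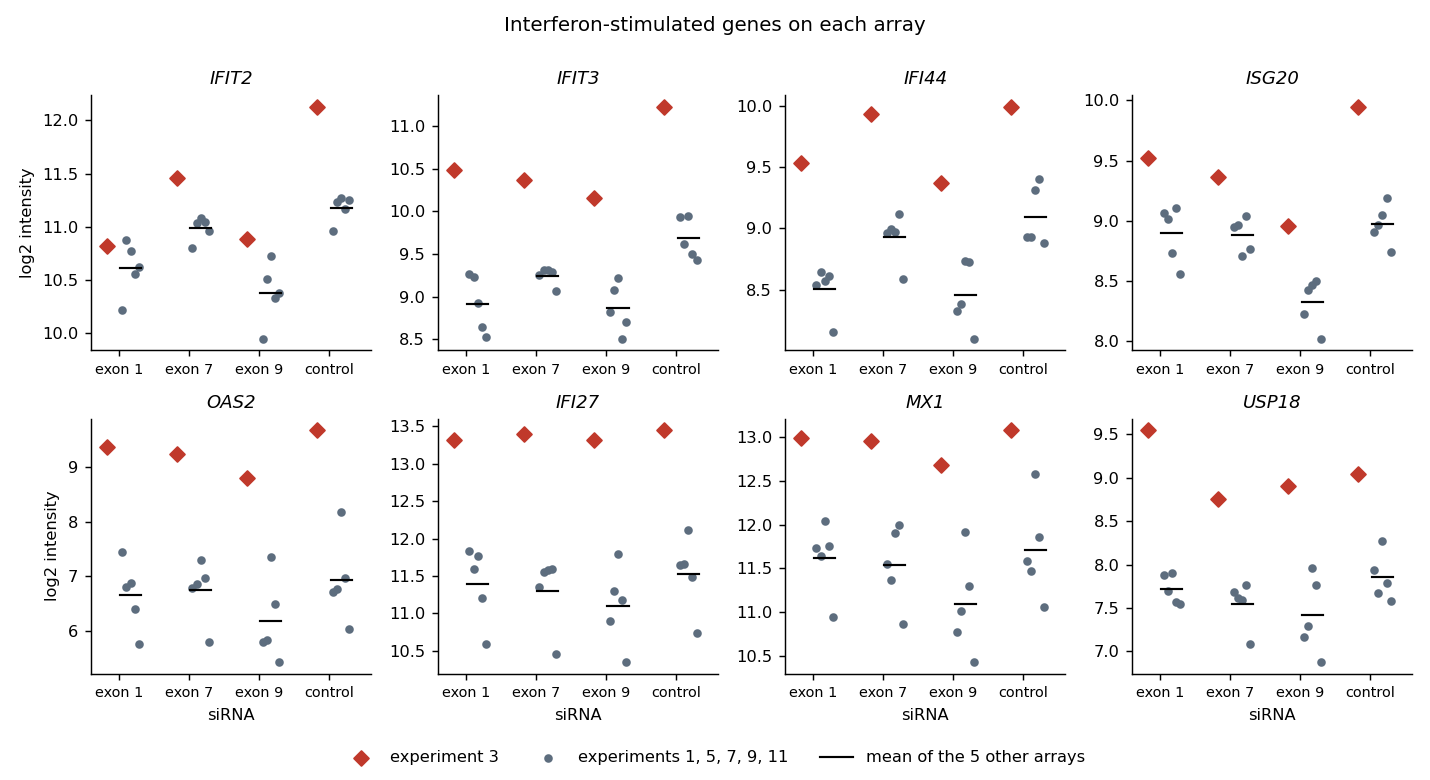
Log2 intensity (y axis) of 8 interferon-stimulated genes by siRNA (x axis), with the experiment 3 array as a red diamond, the arrays of experiments 1, 5, 7, 9 and 11 as grey points and the mean of those 5 as a bar. In 7 of the panels the red diamond lies above every grey point of its siRNA, while for IFIT2 it overlaps them under exon 1.

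IFIT3 lies on GRCh38.p14 at chr10:89327997-89340968, IFIT2 at chr10:89302046-89309271, IFI44 at chr1:78649789-78664078 and ISG20 at chr15:88635632-88656483. Stretches of 50 bases before a listed start are shown for the markers and leading genes that carry letters of the response element. They are shown because these genes were high together in experiment 3. ISG15 was added, although its difference was smaller than those of the leading genes. The marker IFIT2 and the leading genes OAS2 and USP18 had no listed start, so they were not searched. XAF1, OAS1, PRUNE2, REC8 and TMEM40 had listed starts but gave no such stretch. The genes shown are therefore a selection. The sequences are RefSeq's on GRCh38.p14, all on the plus strand, 5′ to 3′. Capitals mark each match to the letters searched, which are GAAA, any 2 bases and GAAA again, on either strand (on the other strand they read TTTC, any 2 bases and TTTC). The 2 matches of ISG15 overlap, IFI27 and IFIT1 show 2 matches each, and IFIT3 and IFI44L hold a further match outside the window.
IFIT3: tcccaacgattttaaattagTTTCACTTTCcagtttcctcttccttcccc
IFI44: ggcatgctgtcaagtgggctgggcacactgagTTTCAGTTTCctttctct
ISG20: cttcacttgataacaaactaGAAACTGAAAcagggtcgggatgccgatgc
IFI44L: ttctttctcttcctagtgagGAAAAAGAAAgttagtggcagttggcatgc
IFI27: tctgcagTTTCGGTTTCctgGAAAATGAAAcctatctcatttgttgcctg
MX1: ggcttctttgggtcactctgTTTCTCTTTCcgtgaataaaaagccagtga
IFIT1: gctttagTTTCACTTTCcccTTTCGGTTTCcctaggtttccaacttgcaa
ISG15: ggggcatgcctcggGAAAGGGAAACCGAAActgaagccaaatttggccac
These windows lie at chr10:89327855-89327904 for IFIT3, chr1:78649739-78649788 for IFI44, chr15:88638927-88638976 for ISG20 and chr1:78620355-78620404 for IFI44L. The others lie at chr14:94110621-94110670 for IFI27, chr21:41431834-41431883 for MX1, chr10:89392500-89392549 for IFIT1 and chr1:1013370-1013419 for ISG15. Where a gene has several listed starts, the window is that of the first start with a match.

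The letters were searched in 300 bases, 250 before and 50 after each start, and were present in 4.38% of the 27305 genes listed and 3.83% of the 8874 tested genes that were listed. Of the 31 interferon effectors called higher 28 were listed, and 20 of them (71.4%) held a match. Of the 18 tested effectors that were not called 14 were listed and 7 held one. Among the higher genes on no interferon or antigen list, 6 of 120 listed genes held a match (5%): CEACAM1, DDX60L, PTPRE, TNFRSF1B, TNFSF9 and TRIM2. Of the lower genes 2 of 48 did (4.17%), MIR100HG and ZNF189. A match describes letters in this window and is not a shown binding site.

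Of the 12 listed sensors of foreign nucleic acid, 7 passed the filter on dim probes. Of these 2 were called higher, beside 1.63% of all genes, and 0 lower, with a median difference of 0.40, against -0.02 over all genes. RIGI and IFIH1, helicases that bind viral RNA in the cytosol, were both higher by 0.73. RIGI had 8.12, 7.78, 7.77 and 8.48 in experiment 3, against 6.85, 7.33 and 7.87 as lowest, median and highest of the others. Within each siRNA the experiment 3 array was the highest.

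EIF2AK2, the kinase that halts translation on binding double-stranded RNA, differed by 0.46, and TLR3, the endosomal sensor of such RNA, by 0.40. Both stayed under the threshold, though EIF2AK2 lay outside the range of the others under every siRNA. DHX58, another RIG-I-like helicase, did not pass the filter and was above background on 4 of 4 experiment 3 arrays and on 1 of the 20 others. CGAS, a sensor of DNA, differed by -0.28 and its adaptor STING1 by 0.14. MAVS, the adaptor of the RNA helicases, differed by -0.31, and its second probe by -0.02. None of the 3 was called.

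The interferons themselves were not measurable. All 9 listed ligand genes, IFNB1, IFNL1, IFNL2, IFNL3, IFNA1, IFNA2, IFNE, IFNK and IFNG, had a probe and 0 passed the filter. Their probes were above background on at most 1 of the 4 experiment 3 arrays and at most 3 of the others. A difference in these ligands was therefore not detectable at this signal. The receptors were measured and did not move as a group: of 6 tested, 0 were called in either direction, with differences from -0.14 to 0.29. IFNAR1 and IFNAR2, the chains that bind type I interferons, both differed by -0.14, and the 1 other IFNAR2 probe that passed the filter by 0.06. IFNLR1, the chain specific for type III interferons, differed by 0.29.

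Of the 13 signalling genes tested, 2 were higher, beside 1.63% of all genes, and 0 lower, with a median of 0.11. USP18, which removes ISG15 from proteins and restrains the receptor, had 9.55, 8.76, 8.90 and 9.05 in experiment 3, against 6.88, 7.67 and 8.28. All 4 arrays stood above all of the others, by 1.43 (2.70-fold). IRF9, the DNA-binding part of the interferon-activated complex, had 11.60, 11.60, 11.59 and 11.56 in experiment 3, against 9.92, 10.61 and 11.21, a difference of 0.94 (1.92-fold). Its experiment 3 arrays stood above all of the others and close together, from 11.56 to 11.60.

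IRF7, which amplifies interferon production, differed by 0.55, just under the threshold, and its second probe by 0.85. The kinases JAK1 and TYK2 of the receptor chains differed by 0.40 and -0.31, and the feedback inhibitors SOCS1 and SOCS3 by 0.31 and 0.11, with -0.11 on the second probe of SOCS3. IRF5, a factor better known from immune cells, differed by -0.50 and was the 1 signalling gene whose experiment 3 arrays lay below the range of the others under every siRNA.

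The effectors, the antiviral proteins that the pathway induces, had the largest median difference of the gene lists examined. Of 56 listed 49 were tested, of which 5 also stand among the sensors or signalling genes. Of these 31 were called higher, set beside 1.63% of all genes, and 0 lower. Without background correction, and with the authors' normalized values, 19 were called higher, beside 63 of the 11029 genes. All 49 differences were positive, from 0.14 to 2.64 with a median of 0.70. For 35 the arrays of experiment 3 lay above the range of the others under every siRNA (3.2% of all genes did). The effector CMPK2, at 0.31, was above background on 2 arrays of experiment 3 and 4 of the others. CMPK2 thus passed the filter only through its experiment 3 arrays, so its positive sign depends in part on that choice. How many other tested genes passed in this way was not counted. Experiment 3 had the highest mean of the 6 experiments for 48 of the 49. In this bulk RNA, more responding cells and more transcript per cell cannot be told apart.

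The largest difference of all genes was that of OAS2, an oligoadenylate synthetase that activates RNase L. It had 9.36, 9.24, 8.79 and 9.67 in experiment 3, against 5.43, 6.78 and 8.18, a difference of 2.64 (6.22-fold). Its probe was above background on 14 of the 20 other arrays, and all 4 experiment 3 arrays stood above all others. The 3 other probes of OAS2 did not pass the filter, so this difference rests on 1 probe. The related OAS1 and OAS3 differed by 1.45 and 1.09. Of the 3 other probes of OAS1, the 2 that passed the filter gave 0.28 and 2.17.

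IFI44L, a relative of IFI44, had 8.75, 8.47, 8.43 and 8.70 in experiment 3, against 5.34, 6.05 and 7.47, and was above background on only 6 of the 20 others. Its difference of 2.42 (5.34-fold) rests on values near background in most other arrays, and its second probe gave 0.40. IFI27, a small mitochondrial protein, was bright on all arrays, with 13.32, 13.40, 13.32 and 13.45 in experiment 3, against 10.35, 11.52 and 12.12. It differed by 2.04 (4.11-fold), with no overlap.

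XAF1, which binds an inhibitor of apoptosis, had 9.83, 10.20, 9.90 and 10.45 in experiment 3, against 8.11, 8.57 and 9.47 in the others. MX1, a GTPase that blocks viral replication, had 12.99, 12.95, 12.67 and 13.07, against 10.43, 11.56 and 12.57. IFIT1, which binds foreign RNA ends, had 12.36, 12.57, 12.12 and 12.66, against 10.56, 10.99 and 12.23. XAF1 and MX1 did not overlap the others. IFIT1 overlapped them only through its exon 9 array, which still was the highest under that siRNA. XAF1 differed 2.82-fold and its second probe by 0.95 on the log2 scale, IFIT1 differed 2.57-fold and its second probe by 0.75, and MX1 differed 2.70-fold.

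ISG15, a ubiquitin-like modifier, differed by 1.15 (2.21-fold), the membrane protein IFITM1 by 1.09 and RSAD2, which makes a chain-terminating nucleotide, by 1.05. The ADP-ribosyltransferases PARP14 and PARP9 differed by 1.09 and 1.04, and DTX3L, the ubiquitin ligase that pairs with PARP9, by 0.60. DTX3L was the called effector nearest to the threshold, and GBP1, a GTPase at 0.58 and at 0.76 on its second probe, the nearest outside it. At the low end stood ADAR, the RNA-editing enzyme, at 0.23, and the bright membrane proteins IFITM3 and IFITM2 at 0.25 and 0.14. IFI6 differed by 0.36 on its brighter probe and by 2.31 on its other one.

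Of the 6 effectors with a probe that did not pass the filter, BST2 and MX2 were detected almost solely in experiment 3. BST2, a membrane protein that holds budding virus on the cell, was above background on 4 of 4 experiment 3 arrays and 0 of 20 others and was at least 1.84-fold higher there. This bound sets the experiment 3 mean against the mean, per array, of the higher of the lowest signal above background and the gene's own signal. MX2 was above background on 4 of 4 and 1 of 20. TRIM14, TRIM22, TNFSF10 and BATF2 were on 0 arrays. Only 4 probes with a gene symbol were above background on every experiment 3 array and on at most 1 other, and the fourth was OR2T6, a gene of the olfactory family used here as background. The same count was 4 in experiment 9, 1 in experiment 11 and 0 in experiments 1, 5 and 7.

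The other experiments also differed in these genes, by less. Each was set against the remaining 4 with experiment 3 left out. The effector median was 0.21 in experiment 7, 0.07 in experiment 5, -0.03 in experiment 9, -0.04 in experiment 1 and -0.25 in experiment 11, beside 0.70 in experiment 3. Among these 5 experiments, experiment 7 held the highest mean for 29 of the 49 effectors and experiment 11 the lowest for 28. IFIT1 averaged 12.43 in experiment 3 and 11.75 in experiment 7, against 10.78 to 11.02 in the rest. MX1 averaged 12.92 and 12.11, against 10.83 to 11.73.

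**Figure D2:**
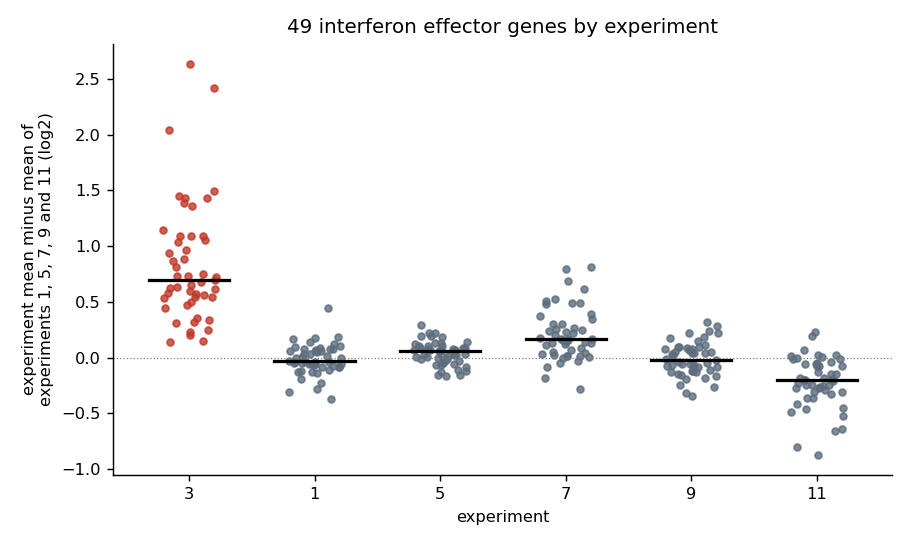
Mean log2 intensity of each of the 49 tested interferon effectors in an experiment, minus its mean over experiments 1, 5, 7, 9 and 11 (y axis), by experiment (x axis). Each point is a gene and each bar the median. All 49 points of experiment 3 lie above 0, with a median of 0.70, and most points of experiment 11 lie below 0.

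The effector difference was present under each siRNA. Its median was 0.63 under exon 1, 0.69 under exon 7, 0.70 under exon 9 and 0.86 under the control siRNA, and 47, 48, 49 and 49 of the 49 genes were positive. The arrays stand in 2 sets of 12 columns in the table. Experiment 3 has its exon 9 and control arrays in the first set and its exon 1 and exon 7 arrays in the second, so it could be set against others within each. The effector median was 0.75 in the first set and 0.63 in the second, each from 2 experiment 3 arrays and the 4 other arrays used. The rule applied within the first set called 156 of the 180 higher and 52 of the 67 lower genes again, and within the second 150 and 62. These are the same arrays that made the calls, so the counts are a description.

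Antigen presentation genes, which display peptides to T cells and are also induced by interferons, showed smaller differences. Of 15 tested genes 12 were positive, beside 5150 of the 11029 genes, with a median of 0.25. Only HLA-B was called higher, at 0.60, beside 1.63% of all genes, and 0 were lower. HLA-F, HLA-C and B2M, the shared light chain, differed by 0.57, 0.47 and 0.31, and the immunoproteasome subunit PSMB9 by 0.41. HLA-E differed by -0.02. HLA genes are similar in sequence, and whether their probes share signal was not tested.

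Of the 18 inflammatory genes driven by NF-kB that were tested, 0 were called higher and 3 lower, beside 0.607% of all genes lower. Of the 18, 14 were negative, beside 5879 of the 11029 genes, with a median of -0.15. Experiment 11, set against the remaining 4 without experiment 3, had a median of -0.13 in these genes. PTGS2, the inducible cyclooxygenase, had 10.60, 9.09, 9.58 and 9.78 in experiment 3, against 9.39, 10.67 and 11.72. Its experiment 3 array was the lowest under each siRNA, by a mean of -0.99 (1.99-fold lower), and its second probe gave -0.92. IL6, an inflammatory cytokine, had 8.63, 9.10, 8.35 and 9.31, against 8.78, 9.62 and 10.23, and was also lowest within each siRNA, by -0.68.

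CXCL2, which attracts neutrophils, differed by -0.69 and was above background on only 2 of 4 experiment 3 arrays and 17 of 20 others. The inhibitors of the pathway, NFKBIA and TNFAIP3, differed by -0.17 and -0.14. CCL2 and CCL5, chemokines that respond to both pathways, differed by 0.59 and 0.19, and neither was called. CCL2 met the 1.5-fold threshold but did not have the same sign under each siRNA. Its probe was above background on 3 of 4 experiment 3 arrays and 15 of 20 others. Of the 18 immediate early genes EGR1 was lower and KLF4 higher, beside 0.607% and 1.63% of all genes. EGR1, a transcription factor induced within minutes of growth stimuli, had 8.94, 9.39, 9.40 and 8.94, against 8.90, 10.29 and 11.63. Its difference of -1.20 (2.30-fold lower) was the largest fall, but experiment 1 averaged 9.37 and overlapped experiment 3, while experiment 9 reached 11.41. KLF4, a factor of epithelial differentiation, differed by 0.60.

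**Figure D3:**
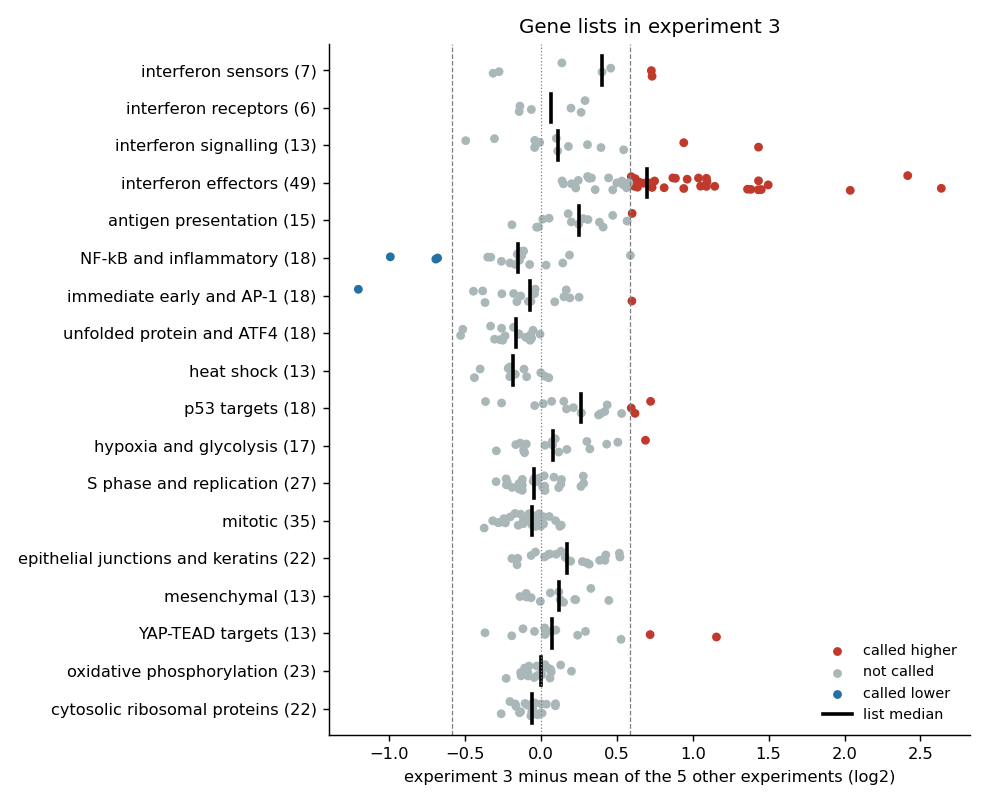
Difference of experiment 3 from the mean of the 5 other experiments (x axis, log2) for the members of 18 gene lists (y axis, number of genes tested in brackets). Red points were called higher, blue points lower and grey points neither, black bars are list medians and dashed lines the 1.5-fold threshold; the effectors lie to the right as a group, and the 4 blue points are EGR1, PTGS2, CXCL2 and IL6.

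Of the 18 targets of p53 tested, 15 were positive, beside 5150 of the 11029 genes. Of the 18, 3 were called higher, beside 1.63% of all genes, and 0 lower, with a median of 0.27. PHLDA3, an inhibitor of AKT, had 9.27, 9.02, 8.60 and 8.59 in experiment 3, against 7.86, 8.21 and 8.76. TP53INP1, a stress-induced nuclear protein, had 9.13, 8.77, 8.66 and 8.48, against 7.68, 8.11 and 8.73. Both were highest in experiment 3 within each siRNA, by 0.62 and 0.60, and the spread between the other experiments was small (SD 0.11 and 0.06).

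DDB2, which recognises damaged DNA, differed by 0.72, with 0.31 to 1.16 by siRNA. CDKN1A, the cell-cycle inhibitor, differed by 0.53, BAX by 0.42 and MDM2, the p53 ligase, by 0.38. Against this direction GADD45A and SESN2 differed by -0.36 and -0.26. The list median was 0.37 under exon 1, 0.27 under exon 7, 0.13 under exon 9 and 0.31 under the control siRNA.

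**Figure D4:**
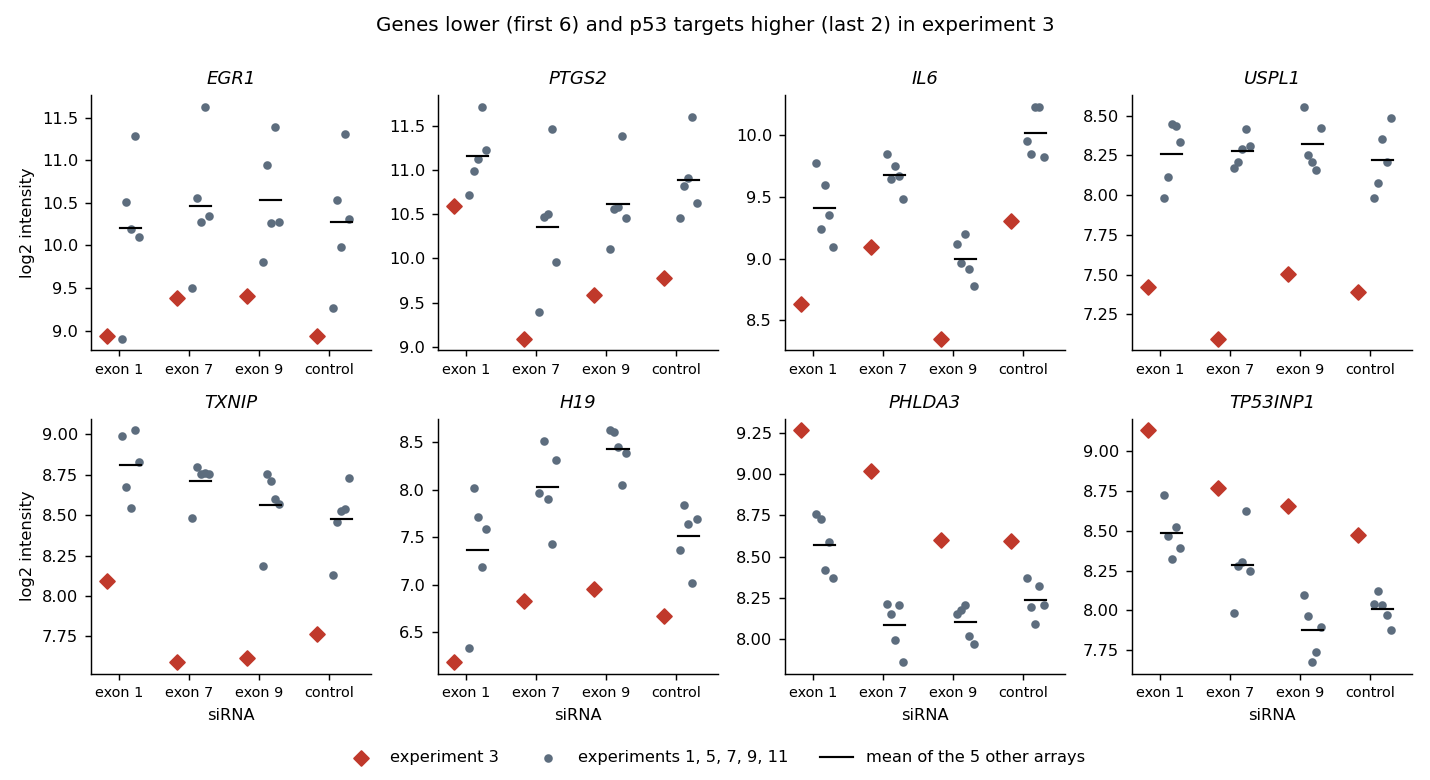
Log2 intensity (y axis) by siRNA (x axis) of 6 genes called lower and 2 p53 targets called higher in experiment 3, drawn as for the interferon-stimulated genes. USPL1 and TXNIP lie below all other arrays in experiment 3, by means of -0.92 and -0.87, while EGR1 overlaps the others.

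Lists of proliferation and metabolism had medians near the -0.02 of all genes. Over all 11029 genes 5150 differences were positive and 5879 negative. S phase genes (27 tested) and mitotic genes (35 tested) had 0 called and medians of -0.04 and -0.06. Respiratory chain genes (23) had a median of 0.00 and ribosomal proteins (22) one of -0.06. All 18 targets of the unfolded protein response and ATF4 were negative, with a median of -0.16 and 0 called, and by the same calculation experiment 5 also had a median of -0.16. Heat shock genes (13) had 11 negative, a median of -0.18 and 0 called. Both medians were at least as far below that of all genes as the median of the inflammatory genes. Epithelial junction genes and keratins (22) had 17 positive, 0 called and a median of 0.17, with CDH1 at 0.42 and KRT8 at -0.06.

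Epithelial identity was present in all arrays. The summed linear intensity of EPCAM, CDH1, KRT8, KRT18 and KRT19 was 48542 to 57533 in experiment 3, against 44674 to 56686. Of the 6 immune markers CD14 and CD68 were tested, and their sum was 2041 to 3256 in experiment 3, against 1470 to 2979. The defining immune markers PTPRC, CD3E and LYZ were above background on 0 of 24 arrays. Of fibroblast markers 3 of 5 were tested, with sums of 233 to 311 against 207 to 326, and PDGFRB and LUM were not above background in experiment 3. Of the 5 basal markers KRT5 and ITGB4 were tested and were above background on all arrays. Their sum was 2507 to 2744 in experiment 3, against 2348 to 3216. The basal keratin KRT14 was above background on 0 arrays. The part of such cells in the interferon difference was not tested.

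Besides the interferon and antigen lists, 148 further genes were called higher. The 12 largest differences included PRUNE2 at 1.29, the meiotic cohesin subunit REC8 at 1.25 and TMEM40 at 1.24. REC8 had 8.65, 9.10, 9.03 and 8.93 in experiment 3, against 6.96, 7.68 and 8.62, and did not overlap the others, with a difference of 0.67 on its second probe. TMEM40 was above background on 4 of 4 experiment 3 arrays and 3 of the 20 others, and PRUNE2 on 4 and 9. TMEM40 thus passed the filter only through its experiment 3 arrays.

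Chosen after the values were seen, several of these genes are also known to respond to interferon. HELZ2, a helicase, differed by 0.97, the adaptor HSH2D by 0.94, the RNA helicase ZNFX1 by 0.86, DDX60L by 0.85, the guanylate-binding GBP2 by 0.81 and the lysosomal transporter SLC15A3 by 1.03. SLC15A3 was above background on 3 of 4 experiment 3 arrays and 3 of the 20 others, and GBP2 on 4 of 4 and 7 of 20, so the sizes of these 2 differences are uncertain. SLC15A3 passed the filter only through its experiment 3 arrays. HELZ2 averaged 10.82 in experiment 3, against 9.85 ± 0.31 (SD over 5 experiments).

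The 148 genes had a median span in the genome of 68.3 kb (quartiles 20.2 and 162.8 kb), against 26.8 kb for all tested genes, 26.0 kb for the 32 higher genes on the interferon and antigen lists and 11.8 kb for the 67 lower genes. The share of genes called higher was 0.999% below 10 kb and 4.73% above 300 kb. The share called lower was 1.07% below 10 kb and 0.338% above 300 kb. Of these genes, KMT2A, a histone methyltransferase, averaged 8.11 in experiment 3 and 7.62 in experiment 5, against 6.57 to 7.40 in the rest. AHNAK, a giant scaffold protein, averaged 12.80 and 12.70, against 11.60 to 12.07, but its second probe differed by only 0.13 in experiment 3, against 0.83 on the probe shown. These 2 were chosen after the values were seen.

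With experiment 3 left out, the 148 genes had medians of 0.22 in experiment 5 and 0.21 in experiment 1, and of -0.12 to -0.22 in experiments 7, 9 and 11. The order of experiments thus differed from that of the effectors, in which experiment 7 came next after experiment 3. The 32 genes called higher in experiment 5 had a median span of 83.8 kb, and the 22 called lower one of 10.7 kb. In experiment 7 the 10 higher genes had 6.0 kb and the 36 lower 101.8 kb. Experiment 1, however, had 5.3 kb for its 9 higher genes and 9.7 kb for its 27 lower ones. Experiment 9 had 0.353 kb for 97 higher and 50.8 kb for 46 lower genes, and experiment 11 had 111.4 kb for 3 and 8.8 kb for 45.

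Among the lower genes, H19, an imprinted noncoding RNA, had 6.18, 6.83, 6.95 and 6.67 in experiment 3, against 6.33, 7.88 and 8.63, and was lowest within each siRNA by -1.18 (2.26-fold lower). USPL1, which cleaves SUMO from proteins, had 7.42, 7.10, 7.50 and 7.39, against 7.98, 8.27 and 8.55. TXNIP, which binds thioredoxin and responds to glucose, had 8.10, 7.59, 7.62 and 7.77, against 8.13, 8.69 and 9.02. USPL1 and TXNIP were below all other arrays, by -0.92 and -0.87.

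The host gene of microRNAs MIR100HG differed by -0.91, the hormone subunit CGA by -0.89, the adaptor subunit AP3M2 by -0.83, ZNF559 by -0.80 and COA5, which helps assemble cytochrome oxidase, by -0.80. The ribosomal RNA gene RNA18SN5 differed by -0.81, with 8.30 in experiment 5 as low as its 8.36 in experiment 3. CCNA1, a cyclin of the germ line, differed by -0.88. It was above background on 0 of 4 experiment 3 arrays and 10 of 20 others, so the size of this difference is uncertain. It averaged 5.68 in experiment 1, close to its 5.64 in experiment 3, and 7.46 in experiment 9.

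The same rule applied to each experiment in turn gave other counts. In experiment 9 it called 97 genes higher (0.879%) and 46 lower (0.417%), and in experiment 5 it called 32 (0.29%) and 22 (0.199%). In experiment 7 it called 10 (0.0907%) and 36 (0.326%), in experiment 1 it called 9 (0.0816%) and 27 (0.245%), and in experiment 11 it called 3 (0.0272%) and 45 (0.408%). At 2-fold, 27 genes were higher in experiment 3 (0.245%), 15 of them effectors, and 2 lower (0.0181%), EGR1 and H19. Experiment 9 had 30 higher (0.272%) and 4 lower (0.0363%) at 2-fold. The SD of the difference over all genes was 0.233 in experiment 3 and 0.147 to 0.198 in the others. Deviations from the siRNA means correlated across genes between the 4 arrays of experiment 3 at r = 0.39 to 0.56 (median 0.43 over 6 pairs). The median was 0.29 in experiment 9, 0.13 to 0.21 in the rest and -0.05 between arrays of different experiments.

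Whether the siRNAs acted differently in experiment 3 was tested with limma as an interaction between siRNA and experiment 3. Experiment 3 gives 1 array per siRNA, which is assumed to vary like the arrays of the other experiments. The fit called 0 of 11029 genes for the exon 1, exon 7 and exon 9 siRNAs at an adjusted p of 0.05, while 414, 264 and 199 genes had an unadjusted p below 0.05 (3.75%, 2.39% and 1.8%). With the experiment as a replicate block it also called 0, with 678, 438 and 349 at an unadjusted p below 0.05 (6.15%, 3.97% and 3.16%). The effectors' interaction terms had medians of -0.07 for exon 1, -0.07 for exon 7 and -0.09 for exon 9. Each had a median standard error of 0.38 without the block and 0.26 with it. Among the markers, the terms for exons 1, 7 and 9 were -0.74, -0.48 and -0.44 for IFIT2 and -0.34, -0.50 and -0.34 for ISG20. They were 0.04, -0.42 and -0.25 for IFIT3 and 0.13, 0.10 and 0.02 for IFI44. The standard errors of these terms were 0.29 to 0.38 without the block and 0.18 to 0.27 with it. All terms of a gene share the control array of experiment 3, so they are not independent. The effectors and markers chose experiment 3, so their terms are a description. No difference in siRNA effect passed the test, which does not show that the effects were alike.

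Experiment 3 also enters the siRNA comparisons as 1 of their 6 replicates. Against control, limma without a block called 1107 genes for exon 1 (10%), 212 for exon 7 (1.92%) and 400 for exon 9 (3.63%) over 24 arrays. Without experiment 3 it called 738 (6.69%), 125 (1.13%) and 265 (2.4%). With the experiment as a replicate block, over 24 arrays, it called 2062 (18.7%), 580 (5.26%) and 1019 (9.24%). Leaving out any 1 of the 6 experiments lowered these counts, to 545 to 1015 for exon 1, 95 to 195 for exon 7 and 190 to 354 for exon 9.

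For the effectors, leaving out experiment 3 raised the counts without a block and lowered them with it. Experiment 3 was chosen for high values of such genes, and these values enter the spread of a fit without a block. The change in counts on leaving it out is therefore a description. Over 24 arrays without a block, limma called 3 lower under exon 1 (4.86% of all genes were lower), 0 under exon 7 (0.78%) and 2 under exon 9 (1.67%). Without experiment 3 it called 6, 1 and 7 lower (2.99%, 0.381% and 1.02%). The median change without experiment 3 was -0.13 under exon 1, -0.13 under exon 7 and -0.32 under exon 9, against -0.19, -0.16 and -0.33 over all 24 arrays. The median standard error was 0.16 without it and 0.20 over all 24. With the replicate block and all 24 arrays, 14, 3 and 29 were lower (8.8%, 2.56% and 4.71%) at a median standard error of 0.10. With the block and without experiment 3, 11, 2 and 23 were lower (5.27%, 1.02% and 2.7%).

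Values after ± are limma standard errors here. IFIT3, IFI44 and ISG20 are markers on which experiment 3 was chosen, so their change on leaving it out is a description. IFIT3 shows the change. Under exon 9 it differed from control by -0.86 ± 0.33 over 24 arrays (limma, adjusted p = 0.175), by -0.82 ± 0.15 without experiment 3 (adjusted p = 0.00435) and by -0.86 ± 0.10 with the block (adjusted p = 2.01e-05). IFI44 under exon 9 differed by -0.63 ± 0.24 (limma, adjusted p = 0.172), by -0.64 ± 0.14 without experiment 3 (adjusted p = 0.0163) and by -0.63 ± 0.07 with the block (adjusted p = 6.31e-06). ISG20 fell under exon 9 in each of these fits, by 0.70 ± 0.18 over 24 arrays (limma, adjusted p = 0.0269) and by 0.65 ± 0.12 without experiment 3 (adjusted p = 0.00349).

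Under exon 9 the effectors called lower without experiment 3 were EPSTI1, IFI44, IFIH1, IFIT2, IFIT3, ISG20 and PARP14, of which IFIT2 and ISG20 were called with it. Under exon 1 they were ADAR, EPSTI1, IFI44, IFIT2, IFIT3 and OASL, of which ADAR, IFIT2 and OASL were called with it. EPSTI1 was the 1 called under exon 7. GBP1 was the only effector called higher in these fits, under exon 1 with the block and 24 arrays, at 0.33 (9.89% of all genes were higher there).

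Within single experiments the effectors' median change under exon 9 was -0.34 in experiment 3, -0.45 in experiment 1, -0.23 in experiment 5, -0.32 in experiment 7, -0.38 in experiment 9 and -0.35 in experiment 11. Experiment 3 thus lay inside the range of the others, with 44 of 49 effectors below its control array. Under exon 1 the median was -0.30 in experiment 3 and -0.31 to -0.02 in the others, and under exon 7 it was -0.17 and -0.38 to -0.03.

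**Figure D5:**
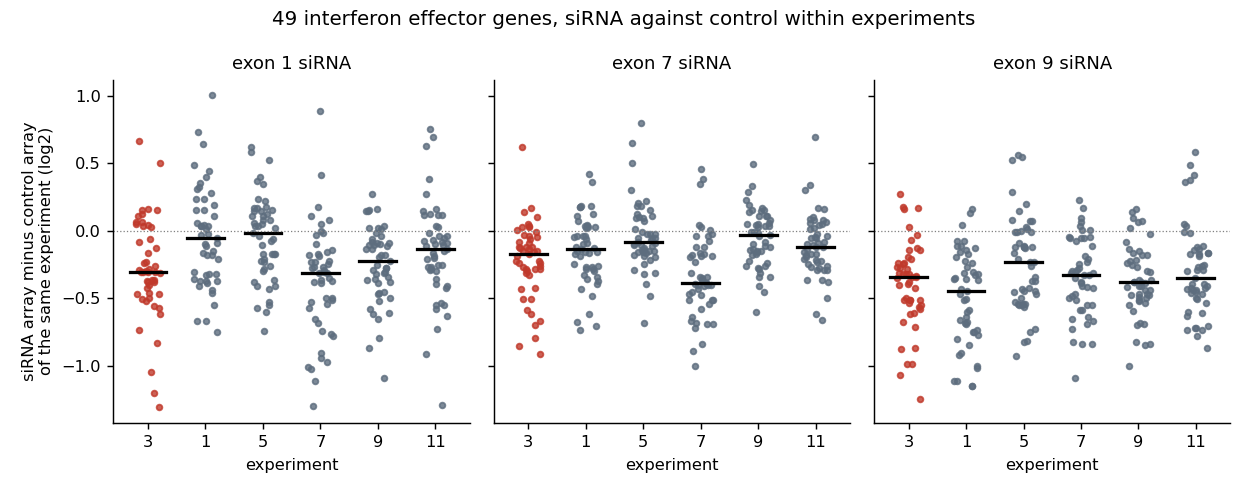
Log2 intensity of the 49 tested interferon effectors on the siRNA array minus that on the control array of the same experiment (y axis), by experiment (x axis), in a panel for each siRNA. Points are genes and bars medians; the median of experiment 3 lies within the range of the others in each panel, at -0.34 for exon 9.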

How the data were processed

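RNA of 24 HB2 samples was read on Illumina bead arrays. The authors deposited log2 intensities without normalization between arrays, which were used, and log2 intensities of 1 shared distribution. Their software was not given in the sources used here. Of 47231 probes 47228 were complete, 30112 had 1 gene symbol, 8 several and 17108 none, and 30073 were renamed by gene number. Linear values were background corrected with normexp (offset 16), with 437 olfactory receptor probes as surrogate background, and quantile normalized in limma 3.58.1 on R 4.3.3. Probes above background (p below 0.05) on at least 6 arrays were kept (19395, 14549 named), and the brightest stood for each of 11029 genes.

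Experiments were taken from the titles. Differences were computed within each siRNA and averaged. limma tested siRNA against control and its interaction with experiment 3, two-sided, with Benjamini-Hochberg adjustment. The numbers pair arrays of 1 experiment by the titles: arrays of the same number deviated together, at median r = 0.13 to 0.43 against -0.05 between numbers. Steps were tested on simulated data.

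Named were the 4 markers, the 12 largest differences each way, up to 5 called members of each list with at least 3, and interferon genes by role or call. Members and lists were chosen with earlier results of these data known. Alternatives changed the background, normalization, filter, probe, block, threshold and arrays. Other columns of samples were 0.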

Additional observations from a re-analysis of the deposited data

Results flagged for a closer look

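The means of the 6 experiments were checked for 32 named genes and 30 lists with Dixon's test, in which the gap to the nearest experiment is divided by the whole range and set against the critical value for 6 values. Of 62 checks 9 passed. Chance flags about 1 in 20 groups, a rate that holds for no gene chosen on these values. Experiment 3 stood apart as the highest for IFIT3 (0.745), USP18 (0.631), TMEM40 (0.668), PHLDA3 (0.645), TP53INP1 (0.809) and the median of the interferon sensors (0.771), and as the lowest for USPL1 (0.783) and TXNIP (0.705). These genes were named because experiment 3 differed in them, so the passes describe the choice and support nothing. TMEM40 was above background on only 3 of the 20 other arrays. The median of the immediate early and AP-1 genes stood apart in experiment 9 (0.734), at 0.42, beside -0.07 in experiment 3.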

How the results depend on the processing

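All 49 effectors kept a positive difference under the other background, normalization and probe settings and with any 1 other experiment left out, as did 37 of 37 under the stricter filter and 54 of 55 without a filter. Without background correction, and with the authors' normalized values, 63 genes were higher and 11 lower and the effector median was 0.51. Higher calls were then 85.1% of all calls, against 72.9% in the reported setting and 83.2% under median scaling. The stricter filter gave 102 and 43, the first 12 columns 272 and 136, the last 12 columns 288 and 176 (both chosen after seeing the data), the 2-fold threshold 27 and 2, and all arrays outside the range 353 and 356. Leaving out 1 other experiment gave 158 to 229 higher and 51 to 101 lower, with 101 without experiment 5. The interaction for exon 9 called 1 gene with no detection filter. For siRNA against control the replicate block gave 2062, 580 and 1019 genes under exons 1, 7 and 9, and 621 under exon 9 without experiment 3. Median scaling gave 124 under exon 7 and 250 under exon 9. Leaving out 1 experiment gave 545 to 1015 under exon 1 (545 without experiment 1 and 730 without experiment 5), 95 to 195 under exon 7 and 190 to 354 under exon 9. Under exon 7 the counts were 95, 125 and 104 without experiments 1, 3 and 11, with a like count without experiment 5, and under exon 9 they were 190, 265, 237 and 235 without experiments 1, 3, 11 and 5.

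Effectors lower numbered 2 to 6 under exon 1, 0 to 1 under exon 7 and 1 to 7 under exon 9 with 1 experiment left out; the highest count in each was without experiment 3. With the replicate block they numbered 14, 3 and 29, and without experiment 3 as well 11, 2 and 23. Under exon 9 they numbered 4 without background correction, with the authors' values and with the stricter filter, and 1 under median scaling. These effector counts were added after seeing the data, and experiment 3 was chosen on genes of this kind. The cause of these moves was not tested. Restricting the comparison to experiments of 1 column set was not run, since every experiment spans both sets. Genes near background, such as IFI44L, TMEM40, CMPK2 and CCNA1, have the least certain differences.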
